A study of Rattus norvegicus with 7 samples.

Results

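*Cox8b*, *Cpt1b* and *Car3* were followed through 7 RNA-sequencing libraries of rat adrenal gland. They are 3 of the 32754 genes in the count table, and 3 of the 13892 that had at least 10 counts in every library. Their rows were found through Ensembl identifiers that the study's supplementary tables pair with these symbols: ENSRNOG00000014656 for *Cox8b*, ENSRNOG00000010438 for *Cpt1b* and ENSRNOG00000010079 for *Car3*. Those tables list genes changed by stress in these same libraries. The genes were thus selected on their measured change in count from Control: all 3 are listed for chronic variable stress, and *Car3* also for chronic shock. Their differences from the control group in those contrasts are therefore given as a description, without a test.

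The animals were male Sprague-Dawley rats, with no genetic modification named. Stress ran for 3 weeks from postnatal day 28, and the glands were taken on day 50 or 51. Control rats (3 libraries) were housed 3 to a cage. Rats in the chronic variable stress group (CVS, 2 libraries) met a changing schedule of physical, psychological and social stressors, with changing cage mates. Their schedule also held sessions of foot shock, periods of isolation, food or water deprivation and disruption of the light cycle. Rats in the chronic shock group (CS, 2 libraries) lived alone in shuttle boxes and received foot shocks at random, in a room apart from the other groups, so shock, isolation and room cannot be told apart. Each library was a pool of RNA from 8 to 9 animals, so the spread between libraries is a spread between pools.

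The 3 genes belong to the fuel metabolism of tissues that burn or store fat. *Cox8b* encodes a subunit of cytochrome c oxidase, the last complex of the mitochondrial respiratory chain, in the isoform typical of heart, skeletal muscle and brown fat. *Cpt1b* encodes the muscle type of carnitine palmitoyltransferase, the outer mitochondrial membrane enzyme that commits long-chain fatty acids to oxidation. *Car3* encodes carbonic anhydrase III, a cytosolic enzyme abundant in adipocytes and in slow skeletal muscle. The adrenal cortex stores cholesterol esters in lipid droplets for steroid synthesis, and the gland lies within a pad of fat that contains brown adipocytes in the rat.

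The label of these genes as brown fat and muscle type could not be checked against other markers of those cells. Of the 7 brown adipocyte markers chosen, *Cox8b* itself was the 1 that could be matched to a row, and of the 10 striated muscle markers 0 could be matched. *Ucp1*, *Cidea*, *Ckm* and *Acta1* were not analysed here. Of the adrenal markers, 1 of 5 for cortex was matched, the aldosterone synthase gene *Cyp11b2*, which was above 0 in every library, and 0 of 4 for medulla. The genes are therefore called by their symbols.

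Of the 3 genes, *Cox8b* had an entry in the table of rat RefSeq promoters used here (build GRCr8, which is not the build the counts were made on). Its promoter is shown for that reason. Many fatty acid oxidation genes are known targets of nuclear receptors, and a nuclear receptor site was among the motifs searched. The 250 bases before its annotated start lie at chr1:205408274-205408523 on the minus strand. They are printed 5′ to 3′ in the direction of transcription, with a TATA box and 2 E-boxes in capitals.

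Cox8b upstream: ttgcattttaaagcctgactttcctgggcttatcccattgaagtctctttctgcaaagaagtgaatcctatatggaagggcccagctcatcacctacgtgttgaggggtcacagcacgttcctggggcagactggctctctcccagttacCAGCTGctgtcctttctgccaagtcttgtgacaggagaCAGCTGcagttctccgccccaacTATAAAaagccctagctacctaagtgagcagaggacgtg

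The TATAAA match lay at positions -39 to -34 (the last base before the start is -1), and 12.9% of 33469 rat promoter windows of the same kind held that motif on either strand. Both E-boxes (searched as CANNTG, which 65.5% of promoters hold) read CAGCTG, a form held by 12.0% of promoters, at positions -100 to -95 and -62 to -57. The nuclear receptor core site AGGTCA, present in 14.1% of promoters, had 0 matches here on either strand. Its direct repeat with 1 base of any kind between the copies (0.0508% of promoters) and CCAAT (34.0%) also had 0 matches. These matches describe letters in 1 window and no binding.

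In the RefSeq gene order *Cox8b* lies between *Psmd13* and *Nlrp6*, *Cpt1b* between *Syce3* and *Chkb*, and *Car3* between *Car2* and *Car1*. Whether the gene models used for counting overlap, and whether counting used the strand, is not given in the sources used here. Reads shared between neighbours or between related carbonic anhydrase genes could therefore not be examined.

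The depth was sufficient for each of the 3 genes. Total counts ranged from 20095746 to 32242123 per library, and the genes had 398 to 2906 counts. Levels below are normalized CPM (a gene's share of its library's counts, scaled by TMM, a method that corrects for library composition). They are not divided by gene length, so they are compared between libraries and not between genes. The libraries carry code prefixes (DM6, DM8, DM10) whose meaning is not stated, and each prefix holds 1 control library.

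*Cox8b* was lower in both CVS libraries than in every control library. It stood at 27.3, 34.0 and 39.4 CPM in the controls and at 15.4 and 20.1 CPM in CVS. In CS it stood at 22.3 and 39.6 CPM. The CVS and control values did not overlap, while the CS libraries lay on either side of the controls and differed from each other by 1.78-fold. The mean was 33.6 ± 6.06 CPM (SD, n = 3) in controls, 17.7 ± 3.31 CPM (SD, n = 2) in CVS and 31.0 ± 12.3 CPM (SD, n = 2) in CS. The order of the means was Control, CS, CVS, and the CS and control levels overlapped. In each group the DM6 library held the lowest *Cox8b* level of that group.

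*Cpt1b* was also lower in CVS, and it was close to even within the other groups. The controls stood at 27.3, 29.6 and 28.2 CPM, the CVS libraries at 13.0 and 20.5 CPM, and the CS libraries at 26.3 and 25.1 CPM. Neither stressed group overlapped the controls, and the CVS libraries differed from each other by 1.57-fold. The mean was 28.3 ± 1.14 CPM (SD, n = 3) in controls, 16.8 ± 5.25 CPM (SD, n = 2) in CVS and 25.7 ± 0.827 CPM (SD, n = 2) in CS. The order of the means was again Control, CS, CVS.

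*Car3* had the opposite direction and another order. The controls stood at 36.1, 28.4 and 45.8 CPM, the CVS libraries at 73.6 and 68.0 CPM, and the CS libraries at 93.0 and 92.8 CPM. The 3 groups did not overlap, and the CS libraries differed by 1.00-fold from each other while the controls spanned 1.61-fold. The mean was 36.8 ± 8.72 CPM (SD, n = 3) in controls, 70.8 ± 3.94 CPM (SD, n = 2) in CVS and 92.9 ± 0.191 CPM (SD, n = 2) in CS, in the order CS, CVS, Control. Because each library is a mixture of all cells of the glands, fewer cells of a type and less RNA per cell cannot be told apart for any of these genes.

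**Figure D1:**
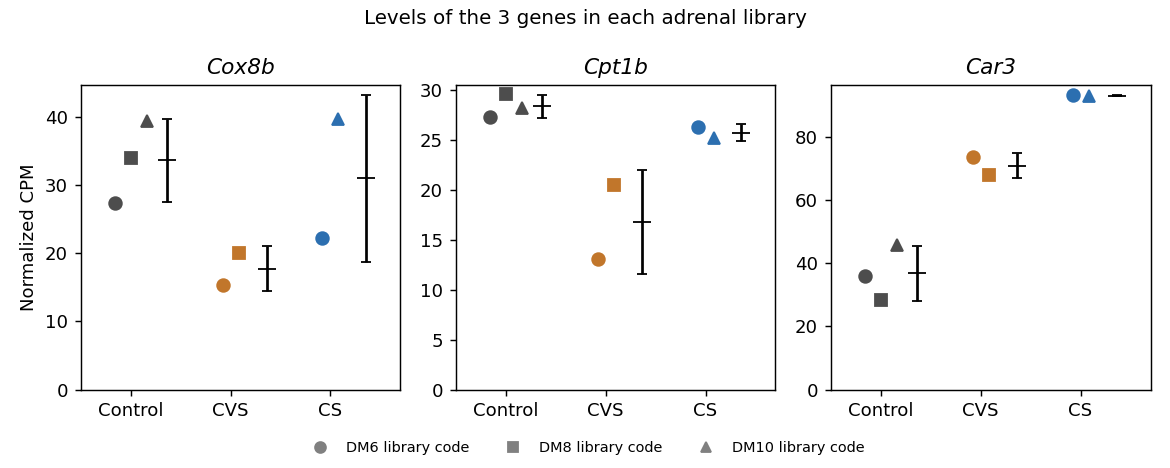
Normalized CPM (y axis) of *Cox8b*, *Cpt1b* and *Car3* in each library, by group (x axis), with 1 point per library shaped by its code prefix and the group mean ± SD beside the points. *Cox8b* and *Cpt1b* are lower in both CVS libraries than in every control library, the CS libraries of *Cox8b* lie apart at 22.3 and 39.6 CPM, and *Car3* is higher in all 4 stressed libraries.

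Across the 7 libraries, log2 CPM of *Cox8b* and *Cpt1b* had a Pearson correlation of 0.805. It was -0.346 between *Cox8b* and *Car3* and -0.443 between *Cpt1b* and *Car3*. These values describe libraries that share their groups and code prefixes, and the direction of each gene in CVS was fixed by how the genes were chosen.

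The comparison of CVS with Control asks what varied stress changed in the gland. *Cox8b* was 0.528 of the control mean and *Cpt1b* 0.591 of it, while *Car3* was 1.93 times the control mean. The log2 fold changes from edgeR's quasi-likelihood fit were -0.93 (SE 0.18) for *Cox8b*, -0.77 (SE 0.18) for *Cpt1b* and 0.95 (SE 0.17) for *Car3*. Among all 13892 genes, 0.511% changed by at least as much as *Cox8b*, 1.20% by at least as much as *Cpt1b* and 0.468% by at least as much as *Car3*. At an adjusted p under 0.05, 0 of the 3 genes were called, beside 0.0936% of all genes. The groups did not overlap for 3 of 3, as for 22.3% of all genes. The call depended on the fit: 3 of 3 were called with the replicate number as a block (5.88% of all genes) and by the DESeq2 Wald test (0.893%), and 2 of 3, without *Cpt1b*, with that block over all 7 libraries (0.878%). Since this contrast chose the genes, nothing is read from these counts. The size for *Cpt1b* depended on the CVS library: its log2 fold change was -0.47 without CVS replicate 1 and -1.12 without CVS replicate 2.

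The comparison of CS with Control asks the same of shock under isolation. *Cox8b* was 0.922 of the control mean, with a log2 fold change of -0.12 (SE 0.24, adjusted p = 0.952 by edgeR's quasi-likelihood test). *Cpt1b* was 0.907 of it, with a log2 fold change of -0.14 (SE 0.095, adjusted p = 0.770 by the same test). Neither gene passed the test, and both comparisons use the control libraries that also took part in choosing these genes. *Cox8b* had no stable sign here, at 0.012 without Control replicate 3 and 0.24 without CS replicate 1. *Car3* was 2.53 times the control mean, with a log2 fold change of 1.34 (SE 0.17). It was 1 of the 29 genes called (0.209% of all genes), a count from which nothing is read because CS chose it too. The call was not kept without Control replicate 1, 2 or 3 (log2 fold changes of 1.32, 1.18 and 1.52) or without CS replicate 2 (1.34). The groups did not overlap for *Cpt1b* and *Car3*, as for 24.9% of all genes.

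CS and CVS were then compared with each other, a contrast that no list of the study used here. Its CVS libraries helped to choose all 3 genes, and its CS libraries *Car3*, so its p-values are given as a description of the fits and no support is drawn from them. All 3 genes were higher in CS without overlap between the groups, as were 20.5% of all genes, and 40.1% did not overlap in either direction. The log2 fold change was 0.81 (SE 0.28) for *Cox8b*, 0.63 (SE 0.21) for *Cpt1b* and 0.39 (SE 0.094) for *Car3*. None of the 3 passed edgeR's quasi-likelihood test, with an adjusted p of 0.638 for each. By that test 0 of 13892 genes were called (0%), while 1020 genes (7.34%) had an unadjusted p under 0.05 and the DESeq2 Wald test called 37 (0.266%). The unadjusted p was 0.0251 for *Cox8b*, 0.0223 for *Cpt1b* and 0.0051 for *Car3* by edgeR.

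Libraries of the same replicate number were treated as pairs, and the fits of CS against CVS differed with that number as a block. The labels do not explain this pairing, and CVS replicate 2 (DM8) and CS replicate 2 (DM10) differ in code prefix. The correlations behind it mirror each other between CVS and CS libraries, at 0.342 and -0.342, so they cannot show that the pairing is right. In edgeR's quasi-likelihood fit of these 4 libraries the log2 fold changes were then 0.76 for *Cox8b* (adjusted p = 0.00716), 0.66 for *Cpt1b* (adjusted p = 0.0363) and 0.39 for *Car3* (adjusted p = 0.0135), so that 3 of 3 were called beside 2.86% of all genes. This fit had 1 residual degree of freedom, with the spread borrowed across genes. With the same block over all 7 libraries (2 residual degrees of freedom) the adjusted p was 0.0317 for *Cox8b*, 0.0755 for *Cpt1b* and 0.0581 for *Car3*, so that 1 of 3 was called beside 1.42% of all genes. With the code prefix as a term over all 7 libraries, a choice made after seeing the data, the adjusted p was 0.0363 for *Cox8b*, 0.0342 for *Cpt1b* and 0.520 for *Car3*. By the DESeq2 Wald test it was 0.289, 0.491 and 0.343. The size of the *Cox8b* difference rested on CS replicate 2, since it was 0.33 on the log2 scale without that library and 1.17 without CS replicate 1. That of *Cpt1b* was 0.33 without CVS replicate 1 and 0.97 without CVS replicate 2.

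With the block, 817 genes (5.88%) were called in CVS against Control and 418 (3.01%) in CS against Control. In those fits Control replicate 3 had no partner and did not inform the difference. The log2 fold changes in CVS became -0.80 (SE 0.10) for *Cox8b*, -0.80 (SE 0.11) for *Cpt1b* and 1.14 (SE 0.081) for *Car3*. In CS they became -0.03 (SE 0.12, adjusted p = 0.934 by edgeR) for *Cox8b*, -0.14 (SE 0.096, adjusted p = 0.523 by edgeR) for *Cpt1b* and 1.53 (SE 0.092) for *Car3*.

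**Figure D2:**
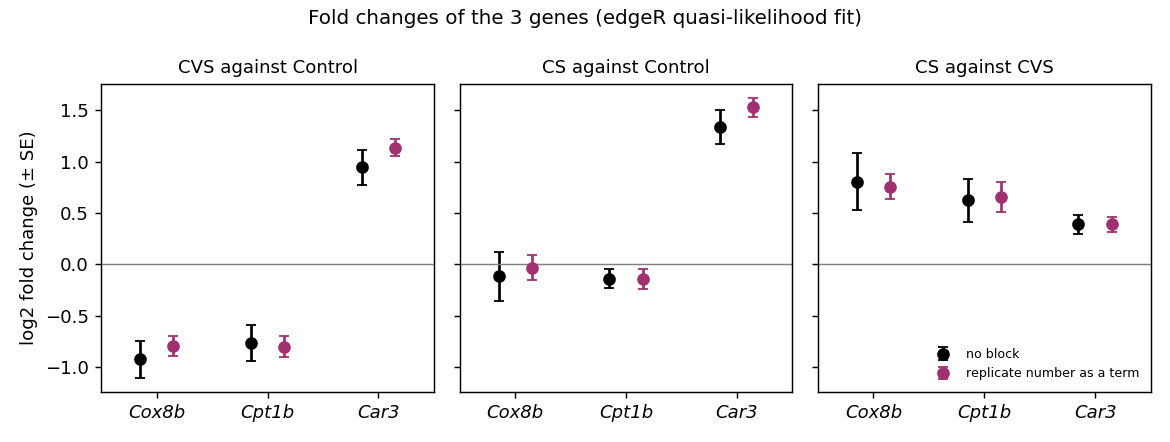
log2 fold change ± SE (y axis) of the 3 genes (x axis) in each comparison, from edgeR's quasi-likelihood fit without a block (black) and in a fit blocked on the replicate number (magenta). The values with and without the block are similar in size, and the SE of *Cox8b* in CS against CVS is smaller with the block.

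Each stressed library was also set beside the control library that shares its code prefix. *Cox8b* was 0.562 of its control in CVS replicate 1 (DM6) and 0.590 in CVS replicate 2 (DM8), but 0.815 in CS replicate 1 (DM6) and 1.01 in CS replicate 2 (DM10). For *Cox8b* the CS libraries, which differed by 1.78-fold in level, were thus closer to each other once set against the control of their own code. *Cpt1b* was 0.478 of its control in CVS replicate 1 and 0.692 in CVS replicate 2, against 0.963 in CS replicate 1 and 0.891 in CS replicate 2. *Car3* was 2.04 and 2.39 times its control in CVS replicates 1 and 2, and 2.58 and 2.02 times in CS replicates 1 and 2. For *Car3* the libraries of each stressed group were further apart on this scale than in level, where they differed by 1.08-fold in CVS and 1.00-fold in CS. Within codes the *Car3* ratios of CVS and CS overlapped, whereas those of *Cox8b* and *Cpt1b* did not. The share of all genes without overlap on this scale was not computed, and in level it was 40.1%. *Cox8b* and *Cpt1b* were chosen for their change in these CVS libraries, so nothing is read from this difference.

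**Figure D3:**
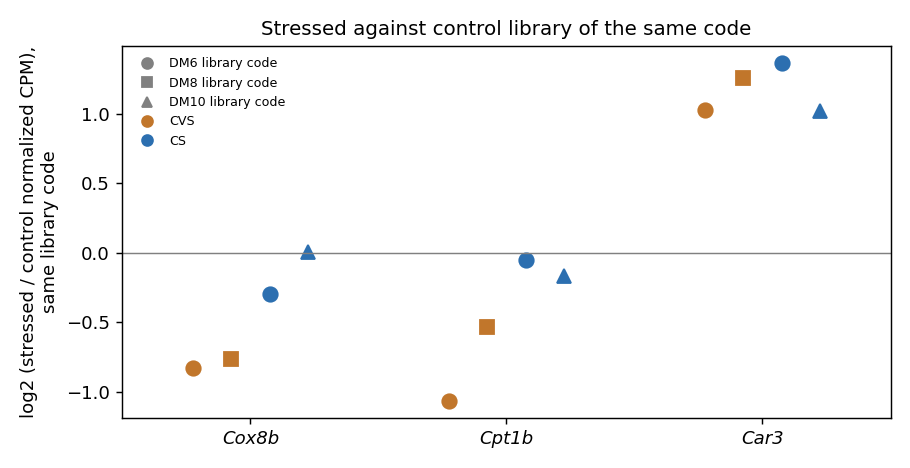
log2 ratio of each stressed library to the control library with the same code prefix (y axis) for the 3 genes (x axis), colored by group and shaped by code. For *Cox8b* and *Cpt1b* both CVS points lie below both CS points, and for *Car3* the CVS and CS points overlap above 0.

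Other genes of the same pathways could be named only where the study's tables pair a symbol with an identifier. Those tables list genes changed in these libraries, so members of a list that can be named are not independent evidence of its direction, and their values are given without a test. Of 19 cytochrome c oxidase subunits *Cox8b* was the 1 that could be matched, and of 16 carbonic anhydrases *Car3* was the 1. No relative of either gene is described for that reason. Of 26 brown and beige adipocyte genes listed 3 were matched, namely *Cox8b*, *Cpt1b* and *Plin5*. Of 13 adrenal cortex and 12 adrenal medulla genes listed 2 each were matched. The cortex genes *Cyp11b2* and *Scarb1* had log2 fold changes of 0.41 and 0.30 in CVS and 0.37 and 0.58 in CS. Of the medulla genes, *Chgb* had -0.05 in CVS and 0.40 in CS, and *Slc6a2* had -0.88 and -0.44. *Slc6a2* was called lower in CVS, beside 0.0864% of all genes, and nothing is read from this because the study lists it too.

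Fatty acid oxidation genes around *Cpt1b* were matched for 4 of 25 listed, with *Cpt1b* among them. *Acsl1* activates long-chain fatty acids to acyl-CoA, *Cpt1a* is the liver type of the enzyme that *Cpt1b* encodes, and *Acaa2* catalyses the thiolase step of mitochondrial beta oxidation. None of these was called in any of the 3 comparisons by edgeR without the block. In CVS the log2 fold changes were -0.33 for *Cpt1a*, -0.33 for *Acaa2* and 0.10 for *Acsl1*. In CS they were -0.24 for *Cpt1a*, -0.04 for *Acaa2* and 0.39 for *Acsl1*. The list median was -0.33 in CVS and -0.09 in CS, *Cpt1b* included, beside medians of 0.0016 and 0.0053 over all genes tested.

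*Cpt1b* is also a target of PPAR alpha, the nuclear receptor that switches on fat oxidation in fasting. Of 23 such targets listed 6 were matched, with *Cpt1b*, *Cpt1a* and *Acaa2* among them. In CVS 6 of 6 had a fold change below 0 and none was called by edgeR without the block. The median was -0.50, beside 0.0016 over all genes tested. *Cpt1b*, *Cpt1a*, *Acaa2* and *Pex11a* are on the study's CVS list, so nothing is read from their shared direction. In CS 5 of 6 were below 0, with a median of -0.19 and none called. *Pex11a*, a peroxisome proliferation factor, had log2 fold changes of -0.95 in CVS and -0.71 in CS, and *Plin5*, a lipid droplet coat protein of oxidative tissues, had -0.58 and -0.88.

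Of 36 muscle genes listed, the 1 match besides the 3 genes themselves was *Myom2*, which encodes an M-band protein of the sarcomere. It stood at 91.9, 73.3 and 85.8 CPM in controls, 56.3 and 52.4 CPM in CVS and 66.1 and 64.9 CPM in CS. The groups did not overlap, and the order Control, CS, CVS was that of the *Cox8b* and *Cpt1b* means. Of all genes, 22.3% did not overlap between CVS and Control, 24.9% between CS and Control and 40.1% between CS and CVS. *Myom2* is on the study's CVS list and was picked after its values were seen, so nothing is read from the shared order. Its log2 fold changes were -0.62 (SE 0.11) in CVS and -0.35 (SE 0.11) in CS.

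*Car3* was read beside the white adipocyte genes, of which 16 of 24 listed were matched. In CS 5 of the 16 were called higher, namely *Car3*, *Adipoq*, *Retn*, *Thrsp* and *Scd*, beside 0.151% of all genes called higher, and *Cd36*, a fatty acid uptake receptor, was called lower, beside 0.0576%. In CVS none was called higher and *Cd36* was called lower, beside 0.0864% of all genes. All 16 are on the study's own CS list, so nothing is read from these counts against the shares of all genes. The list median was 0.56 in CVS and 1.11 in CS. Of the 16, 13 had a fold change above 0 in CVS and 14 in CS. *Cd36* and *Dgat2* were below 0 in both, and *Angptl4* in CVS. *Dgat2* had log2 fold changes of -0.79 in CVS and -0.93 in CS. *Adipoq*, the gene of the adipocyte hormone adiponectin, stood at 8.17 to 11.4 CPM in controls, 13.4 to 16.8 CPM in CVS and 23.4 to 24.0 CPM in CS. Its log2 fold change was 0.66 in CVS and 1.31 in CS. *Retn*, the gene of the adipocyte hormone resistin, had log2 fold changes of 0.69 in CVS and 1.56 in CS. The CS calls of *Adipoq*, *Retn*, *Thrsp* and *Cd36* were not kept without Control replicate 1, 2 or 3 or without CS replicate 2, with log2 fold changes then of 1.20 to 1.44, 1.37 to 1.65, 2.18 to 2.87 and -1.14 to -0.93. The CS call of *Scd* was not kept without Control replicate 3 (1.53), nor the CVS call of *Cd36* without Control replicate 3 (-1.32) or CVS replicate 1 (-1.50).

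The 6 of 7 white adipocyte markers that could be matched, *Adipoq*, *Retn*, *Cfd*, *Fabp4*, *Plin1* and *Cidec*, were above 0 in every library. Their summed level was 32.6 to 50.1 CPM in controls, 58.1 to 61.4 CPM in CVS and 88.9 to 103.1 CPM in CS, in the same order as *Car3*. These 6 genes and *Car3* are all on the study's CS list, so nothing is read from their shared rise in CS. *Cd36* and *Dgat2*, which were lower in both stressed groups, are not part of this sum. Among them *Cfd* overlapped the controls in CVS, with a log2 fold change of 0.11 (SE 0.20). Relative to the control mean, the ratio of *Car3* to this sum was 0.956 to 1.04 in controls, 1.28 to 1.31 in CVS and 0.987 to 1.15 in CS. The part of adipocyte RNA in the *Car3* difference was not tested. *Cox8b* and *Cpt1b* were lower in CVS, where the sum was 1.45 to 1.53 times the control mean.

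**Figure D4:**
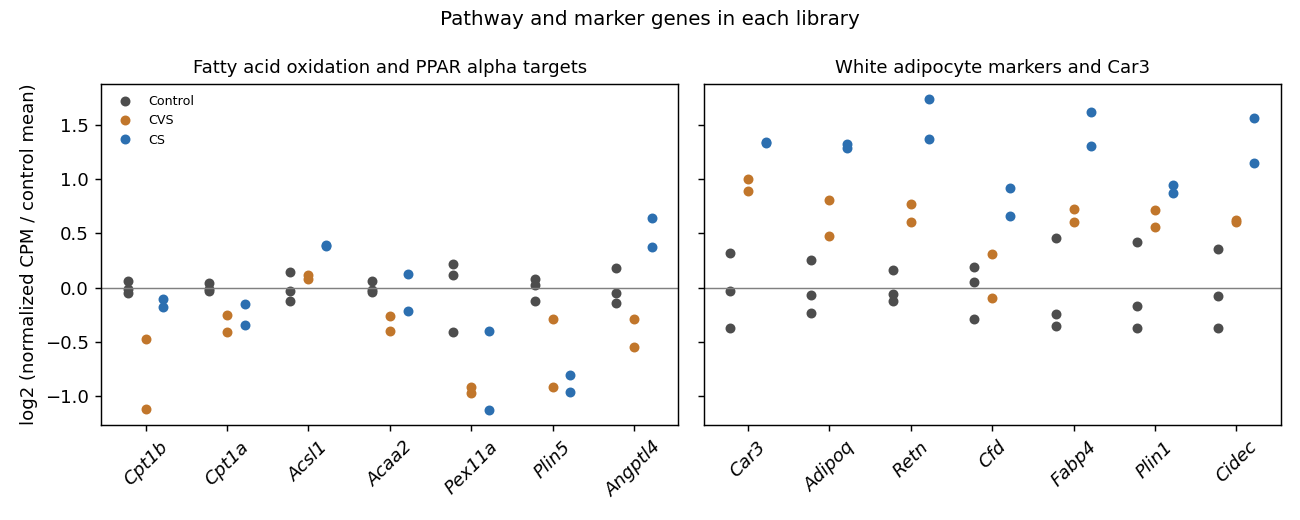
log2 ratio of normalized CPM to the control mean (y axis) in each library for named genes (x axis), with *Cpt1b* beside fatty acid oxidation and PPAR alpha target genes on the left and *Car3* beside white adipocyte markers on the right. On the left, *Acsl1* is the 1 gene with both CVS libraries above 0, and on the right *Car3* and the 6 markers are above 0 in both CS libraries.

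The genes with the most similar profiles were sought among the tested genes with a symbol that are reported here, by the Pearson correlation of log2 CPM over 7 libraries. For *Cox8b* these were *Acaa2* (0.984), *Scgb1c1* (0.956), *Bcan* (0.945), *Hint1* (0.926) and *Apoc4* (0.902). Among all 13892 genes, 1 had a higher value than *Acaa2* and 121 had a higher value than *Apoc4*. *Acaa2* ranged from 740.0 to 796.0 CPM in controls, 576.3 to 634.4 CPM in CVS and 655.5 to 828.8 CPM in CS, with the CS libraries apart as for *Cox8b*.

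For *Cpt1b* the most similar among the same genes were *Nr1d1* (0.971), *Maged2* (0.949), *Retsat* (0.948), *Odc1* (0.946) and *Il23r* (0.935). Among all genes tested, 4 had a higher value than *Nr1d1* and 27 had a higher value than *Il23r*. *Nr1d1*, which encodes the circadian repressor REV-ERB alpha, ranged from 160.8 to 169.1 CPM in controls, 67.6 to 117.0 CPM in CVS and 126.8 to 128.7 CPM in CS. Like *Cpt1b*, it was lowest and least even in CVS.

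For *Car3* the most similar described here were *Zfp395* (0.980), *Plin1* (0.976), *Thrsp* (0.972), *Adipoq* (0.969) and *Kbtbd11* (0.959). Among all genes tested, 1 had a higher value than *Zfp395* and 10 had a higher value than *Kbtbd11*. *Zfp395*, which encodes a zinc finger protein, ranged from 73.7 to 87.6 CPM in controls, 101.8 to 110.6 CPM in CVS and 109.8 to 121.1 CPM in CS, so that both stressed groups lay above the controls and overlapped each other. *Plin1* and *Adipoq* are adipocyte markers from the list above. The genes named for *Cox8b* and *Cpt1b* are all on the study's CVS list, and those named for *Car3* are all on its CS list. A likeness to the member chosen from the same list was thus partly built in. With 7 libraries in 3 groups, such correlations describe profiles and carry no test.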

How the data were processed

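Poly(A) RNA was sequenced from strand-marked libraries as 50 bp single reads. The authors mapped reads to Rnor_6.0 with Rsubread and deposited unnormalized counts per Ensembl gene from featureCounts. Versions, annotation release and strand setting are not given in the sources used here. Total counts ranged from 20095746 to 32242123 per library, which with 2 or 3 pools per group limits precision by the spread between pools rather than by depth.

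Here, the 13892 genes whose count reached 10 in each of the 7 libraries were fitted with edgeR 4.0.16 (limma 3.58.1, R 4.3.3) by TMM, estimateDisp, glmQLFit and glmQLFTest, using the compared libraries only, with Benjamini-Hochberg adjustment over all genes and calls at an adjusted p under 0.05. The deposited table still held genes under that minimum. Each SE was the log2 fold change divided by the square root of F. DESeq2 1.42.0 was an alternative, beside other scalings, filters, terms and leaving out each library. Python 3.11.15, numpy 2.4.6, pandas 2.3.3 and matplotlib 3.10.9 were used for other values. The edgeR and DESeq2 fits without a block or prefix term were tried on simulated counts in which every gene had the same spread setting. The fits with a block or prefix term were not tried in this way.

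Libraries were grouped by their labels. Deviations from the group mean correlated at 0.210 to 0.463 in 6 same-numbered pairs and at -0.463 to 0.194 in 10 others. On that basis libraries of the same number were treated as pairs. The 5 pairs that share a code prefix correlated at 0.194 to 0.463, so these values do not decide between number and prefix. In groups of 2 such deviations mirror each other, and neither numbers nor code prefixes are explained in the labels. Whether pools of 1 group came from separate cohorts is known only as the study's statement of independent replicates.

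Symbols came from the study's tables (276 genes), and some of these genes are not reported here. The members, the 9 gene lists and the markers were chosen with earlier results of these data known. Genes named are the 3 members, list members that were called or are close relatives or defining markers, other matched list members, and for each member the 5 named genes of most similar profile. *Myom2*, *Pex11a*, *Plin5*, *Acsl1*, *Acaa2* and *Angptl4* were picked from the lists after their values were seen.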

Additional observations from a re-analysis of the deposited data

Results flagged for a closer look

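*Angptl4*, a PPAR alpha target that encodes a secreted inhibitor of lipoprotein lipase, was the 1 named gene whose libraries moved in opposite directions under the stress protocols. It stood at 35.5, 33.3 and 41.6 CPM in controls, 30.0 and 25.1 CPM in CVS and 47.7 and 57.5 CPM in CS. Both CVS libraries were below every control library and both CS libraries above every one. Of all genes, 22.3% did not overlap between CVS and Control and 24.9% between CS and Control, in either direction. The log2 fold change was -0.41 in CVS and 0.51 in CS, and neither passed edgeR's quasi-likelihood test. The gene is on the study's CS list, and it was flagged for its opposite directions after its values were seen. Its values in every comparison are therefore a description, and no support is drawn from their p-values. In CVS the adjusted p by edgeR was 0.0132 with the replicate block, where 5.88% of all genes were called. It was 0.337 with that block over all 7 libraries. CS against CVS gave 0.92 (adjusted p = 0.546 by edgeR), and 0.92 with the replicate block (adjusted p = 0.00119 by edgeR). That last fit called 2.86% of all genes. Over the other settings the adjusted p lay between 1.26e-09 without the filter and 0.996 without CS replicate 2, so the call rested on the fit. *Cpt1b*, on the same list of PPAR alpha targets, was below the controls in all 4 stressed libraries.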

How the results depend on the processing

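Over the alternatives that kept all libraries, log2 fold changes of the 3 genes kept their direction, at -0.93 to -0.76 for *Cox8b*, -0.83 to -0.77 for *Cpt1b* and 0.94 to 1.14 for *Car3* in CVS, and 1.19 to 1.53 for *Car3* in CS. Of the values for the 3 genes and the counts of called genes, 143 were counted as the same, 31 moved, 8 newly passed and 2 reversed. For the contrasts that chose the genes this count compares direction and size alone. Calls there did change: in CVS 0 of 3 were called, against 3 of 3 with the replicate block and with DESeq2. For the other fold changes the same means that sign and call were kept, and the size could differ. *Car3* in CS against CVS was 0.39, but 0.16 with the code prefix as a term over all 7 libraries. The called counts moved most, and the cause was not tested. In CVS against Control, 13 genes were called, against 124 with DESeq2, 6 with edgeR's legacy calculation off, 7 with DESeq2's size factors, 151 without the filter, 817 with the replicate block, 122 with the block over all 7 libraries, 817 with the code prefix as a term and 257 with that term over all 7 libraries (the last chosen after seeing the data). In CS against Control, 29 were called, against 191 with DESeq2, 232 without the filter, 418 with the block, 361 with it over 7 libraries, 527 with the prefix and 580 with it over 7 libraries. In CS against CVS, 0 were called, against 37, 295, 397, 197 and, with the prefix over 7 libraries, 111, where the prefix alone left no residual degrees of freedom.

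In CS against CVS, *Cox8b* newly passed without the filter (0.81), with the replicate block (0.76), with the block over 7 libraries (0.77) and with the prefix over 7 libraries (0.62). *Cpt1b* did so at 0.63 without the filter, 0.66 with the block and 0.79 with the prefix over 7 libraries, and *Car3* at 0.39 with the block. With the block *Cox8b* and *Cpt1b* stayed uncalled in CS against Control.

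Leaving out each library in turn gave 0 to 16 calls in CVS, 1 to 83 in CS (83 without CS replicate 1) and 0 to 39 in CS against CVS (39 without CS replicate 1), with the lone library of a group assumed to vary like the others. *Cox8b* then ranged from -1.13 to -0.74 in CVS, -0.59 to 0.24 in CS and 0.33 to 1.17 in CS against CVS. *Cpt1b* ranged from -1.12 to -0.47, -0.17 to -0.11 and 0.33 to 0.97, and *Car3* from 0.79 to 1.13, 1.18 to 1.52 and 0.33 to 0.45. *Cox8b* reversed in CS without Control replicate 3 (0.012) and without CS replicate 1 (0.24). Of 694 values for some of the other named genes 6 reversed, all when a library was left out. These were *Cfd* in CVS without Control replicate 2 (-0.023) or CVS replicate 2 (-0.10, range to 0.30), *Plin5* in CS against CVS without CVS replicate 2 (0.027), and, without CS replicate 1, *Cpt1a* (-0.017, range to 0.17) and *Pex11a* (-0.18, range to 0.54) in CS against CVS and *Acaa2* in CS (0.12, range from -0.22).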
